A study of Mus musculus with 7 samples.

Results

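The genes described here encode 9 transcription factors that set helper T cell fate, chosen by name with earlier results of these data known. Of these, 3 belong to the follicular helper (Tfh) fate, namely Bcl6, Maf and Pou2af1, and 6 to other helper or effector fates, namely Prdm1, Bhlhe40, Tbx21, Gata3, Rora and Zeb2. The authors' annotation gave 11 of 6395 listed peaks to these gene names, and they fell on 6 of the 9 genes. Chromatin accessibility had been measured by ATAC-seq, an assay that reads open DNA from where a transposase inserts, in Tfh cells sorted from spleens of B6/Sle1.Yaa mice. All mice carried this lupus-prone background, were uninfected and were aged 5 months. Mice of the first group (4 samples) had been given anti-IFNAR1, which blocks the type I interferon receptor, for 4 weeks at 2 doses a week. Mice of the other group (3 samples) had received anti-rat IgG on the same schedule as the control. The target of the first antibody is written IFNA1 in the treatment labels, and the series title has IFNAR1, the name used here. The sort gate was CD4+, CD44+, GITR-, PSGL-1 low, CXCR5 high and PD-1 high.

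Helper T cells take up alternative fates, and each fate is held by factors that also repress the others. BCL6 is the repressor required for Tfh cells, and Blimp-1, encoded by Prdm1, opposes it. MAF drives IL-21 production in Tfh cells, and OCA-B, encoded by Pou2af1, is a coactivator of the octamer-binding proteins. T-bet, encoded by Tbx21, directs the Th1 fate, GATA3 directs Th2, and RORα acts in Th17 cells and innate lymphoid cells. ZEB2 acts in terminal effector T cells, and BHLHE40 controls cytokine production by effector helper cells.

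The deposited values were 1 list of sites at which coverage on the anti-IFNAR1 side exceeded the control IgG background at the authors' threshold, a q of 0.05. The list gives 1 pooled value per site, so the spread between mice is unknown for each value below, and no difference between the treatments could be tested here. Every listed peak is higher on the anti-IFNAR1 side by construction, and that direction is no result. Sites with higher coverage on the control IgG side were not part of this comparison, and a gene without a listed peak may be open to the same degree on both sides, lower on the anti-IFNAR1 side or closed. In bulk sorted cells, a larger share of cells with an open site and more open DNA per cell cannot be told apart. Sequencing of the anti-IFNAR1 side was 3.54 times as deep in fragments, and the pileup, which counts fragments overlapping a summit, had been scaled down to the control depth. The fold and the q of every peak named below are the authors' own values from the authors' deposited table. Of 10 Tfh markers, 6 had a listed peak, Cd4, Pdcd1 and Bcl6 among them, whereas Cd44, Cxcr5, Icos and Cd3g had none. Of 8 B cell markers and 7 CD8 T and NK cell markers none had one, of 8 myeloid markers Cd14 alone did, and of 5 regulatory T cell markers Il2ra alone did, beside 21.1% of all protein-coding genes.

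A listed peak was present at 6 of the 9 factor genes (66.7%), and at 21.1% of 21900 protein-coding genes. The 9 genes were chosen with earlier results of these data known, and the 21.1% also counts genes T cells keep closed. The share was 2 of 3 for the follicular factors, where Bcl6 and Maf were listed and Pou2af1 was not. It was 4 of 6 for the factors of other fates, where Bhlhe40, Gata3, Rora and Zeb2 were listed and Prdm1 and Tbx21 were not. The share was thus the same in both classes. Of the 6 listed factor genes, 5 had 2 peaks and Maf had 1. Among the 4616 protein-coding genes with a listed peak, 9.47% had 2 or more. The 5 factor genes with 2 peaks spanned 6297 bp (Bhlhe40) to 734843 bp (Rora), and the part of gene length in this count was not tested.

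The start windows of Bcl6 and Gata3 are shown because listed peaks ran across them. Each window reaches from 250 bases before to 50 bases after a RefSeq start (GRCm38.p6, the assembly of mm10), is written 5′ to 3′ along the gene, and has the bases inside a listed peak in capitals. The Bcl6 window is chr16:23988803-23989102 (minus strand), with 202 of 300 bases in the peak. The Gata3 window is chr2:9878551-9878850 (minus strand), with 170 of 300 bases in the peak, all of them on the upstream side. This start lies inside the RefSeq Gata3 span, whose 5′ end is at 9887953.
Bcl6: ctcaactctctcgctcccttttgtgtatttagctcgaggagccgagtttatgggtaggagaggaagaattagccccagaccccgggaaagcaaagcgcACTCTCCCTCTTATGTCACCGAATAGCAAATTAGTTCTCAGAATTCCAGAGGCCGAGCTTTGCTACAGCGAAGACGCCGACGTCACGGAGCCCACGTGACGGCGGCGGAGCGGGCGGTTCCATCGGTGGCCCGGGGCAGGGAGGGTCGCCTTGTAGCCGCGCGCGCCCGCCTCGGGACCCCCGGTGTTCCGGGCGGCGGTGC
Gata3: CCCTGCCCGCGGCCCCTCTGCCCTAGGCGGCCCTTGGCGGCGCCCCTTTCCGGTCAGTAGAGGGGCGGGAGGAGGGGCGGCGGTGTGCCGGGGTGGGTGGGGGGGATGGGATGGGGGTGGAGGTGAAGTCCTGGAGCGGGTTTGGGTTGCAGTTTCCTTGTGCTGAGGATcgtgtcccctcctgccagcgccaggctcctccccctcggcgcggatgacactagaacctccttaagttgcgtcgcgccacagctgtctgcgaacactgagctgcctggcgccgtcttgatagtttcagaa

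Of the 9 genes, 7 had a window in the RefSeq table, Maf and Bhlhe40 being the others. At 2 of these 7 genes a window overlapped a listed peak, against 18.7% of 17492 protein-coding genes. The windows at Zeb2, Rora, Pou2af1, Prdm1 and Tbx21 overlapped none. The covered part of the Bcl6 window held 1 match to TTCNNNGAA, the palindrome bound by STAT proteins and in a related form by BCL6, which began 118 bases before the start. It also held 1 match to CACGTG, the E-box that BHLHE40 binds, 60 bases before the start. Both strands were searched for every motif. TTCNNNGAA was present in 7.69% of 21263 windows of protein-coding genes and CACGTG in 7.84%. Among the 3731 windows that overlapped a listed peak, TTCNNNGAA was present in 5.33% and CACGTG in 10.7%. The covered part of the Gata3 window held 1 match to TGCTGA, part of the MAF recognition element, 90 bases before the start. That motif was present in 18.1% of all windows and in 13.2% of those that overlapped a listed peak. These matches describe letters and do not show binding.

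A further RefSeq start of Bcl6, inside the gene, had no listed peak over its window (chr16:23981234-23981533, minus strand). It is shown with the Tbx21 window (chr11:97115282-97115581, minus strand), the start of a factor gene with no listed peak, and capitals in both mark motif matches.
Bcl6 internal start: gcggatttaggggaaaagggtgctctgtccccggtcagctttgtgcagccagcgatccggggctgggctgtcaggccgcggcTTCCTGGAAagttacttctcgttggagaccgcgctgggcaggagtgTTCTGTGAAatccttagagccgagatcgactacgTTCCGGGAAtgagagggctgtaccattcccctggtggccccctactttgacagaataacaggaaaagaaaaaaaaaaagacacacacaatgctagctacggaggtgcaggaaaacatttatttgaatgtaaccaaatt
Tbx21: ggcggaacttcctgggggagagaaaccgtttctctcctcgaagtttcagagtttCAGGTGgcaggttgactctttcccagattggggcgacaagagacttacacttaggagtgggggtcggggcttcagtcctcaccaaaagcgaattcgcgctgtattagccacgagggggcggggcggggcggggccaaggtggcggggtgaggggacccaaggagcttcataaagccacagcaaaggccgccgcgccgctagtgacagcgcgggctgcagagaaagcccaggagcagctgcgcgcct

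The internal Bcl6 window held 3 matches to TTCNNNGAA, and 3 or more matches occurred in 3 of the 21263 windows. This count was made after the matches had been seen. The Tbx21 window held 1 match, read on the minus strand, to CACCTG, the E-box bound by ZEB proteins, which 19.7% of windows held. The Prdm1 window held 1 match each to CACCTG and to the AP-1 motif TGANTCA, and the Pou2af1 window 1 match to TGCTGA. Of the 4 Zeb2 windows, an overlapping pair held the same match to TTCNNNGAA and another held 2 matches to TGANTCA, which 6.99% of windows of protein-coding genes held. No matches to different motifs overlapped each other. The octamer ATGCAAAT, the T-box motif AGGTGTGA, the GATA motif AGATAA, the ROR core site AGGTCA and the IRF-type motif GAAANNGAA had no match in any window of these genes.

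Bcl6 had the highest fold of the follicular peaks. Its start peak, on chromosome 16 from 23988691 to 23989004, held 39 anti-IFNAR1 fragments, a scaled pileup of 11.02, against a control IgG background of 0.991. The authors' deposited table gave a fold of 6.04 and a q of 3.27e-06. This background came from 42 control fragments in the surrounding 10 kb, and a background below 1 means that no control fragment lay at the summit itself. Scaled for depth, coverage was 11.1 times this background (exact 95% interval 7.01 to 17.6). This and the following intervals cover counting error of the pooled fragments only. Listing for high coverage pushes them upward, and their net lean was not measured.

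The other peak assigned to Bcl6 lay in an exon of the 5′ UTR, from 23985002 to 23985449, 3404 bp from the start of the transcript. It held 51 anti-IFNAR1 fragments, a pileup of 14.42, against a background of 3.07, with a deposited fold of 3.79 and a q of 0.00127. The background rested on 13 control fragments within 1 kb, and at most 3 of them can have lain at the summit. The ratio without the caller's pseudocount was 4.70 (2.52 to 9.42). Coverage was thus higher, and the fold lower, than at the start peak. The 2 intervals overlapped, but their backgrounds came from windows of 10 kb and 1 kb, and whether the ratios differ was not tested.

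Between these peaks, inside the Bcl6 span, lay a listed peak that the file gave to the start of the transcript Gm37419. It ran from 23988111 to 23988443 and had 26 anti-IFNAR1 fragments, against a control IgG background of 1.18, with a deposited fold of 3.83 and a q of 0.0261. With it, 3 listed peaks lay at the 5′ end of Bcl6.

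Maf had 1 peak, the widest of the 11. It covered the start of the transcript Maf-002 (chromosome 8, 115706933 to 115708701), and its 1768 bp put it at percentile 98.5 of listed lengths. The summit had 90 anti-IFNAR1 fragments, a pileup of 25.44, against a control IgG background of 4.48 from 19 fragments within 1 kb. The deposited fold was 4.82 and the q 3.00e-08. The ratio without pseudocount was 5.67 (3.43 to 9.86). By pileup the peak stood at percentile 96.2 of the list and by fold at percentile 52. It was thus among the most covered listed sites, with a fold near the median. The peak lay 39 bp upstream of the RefSeq Maf span and did not reach it.

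Pou2af1 had no assigned peak. The nearest listed site was intergenic, 27.5 kb before the gene (chromosome 9, 51185581 to 51186232). There, 16 anti-IFNAR1 fragments stood over the genome rate of 0.132, the lowest background the caller allows, with a deposited fold of 4.88.

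**Figure D1:**
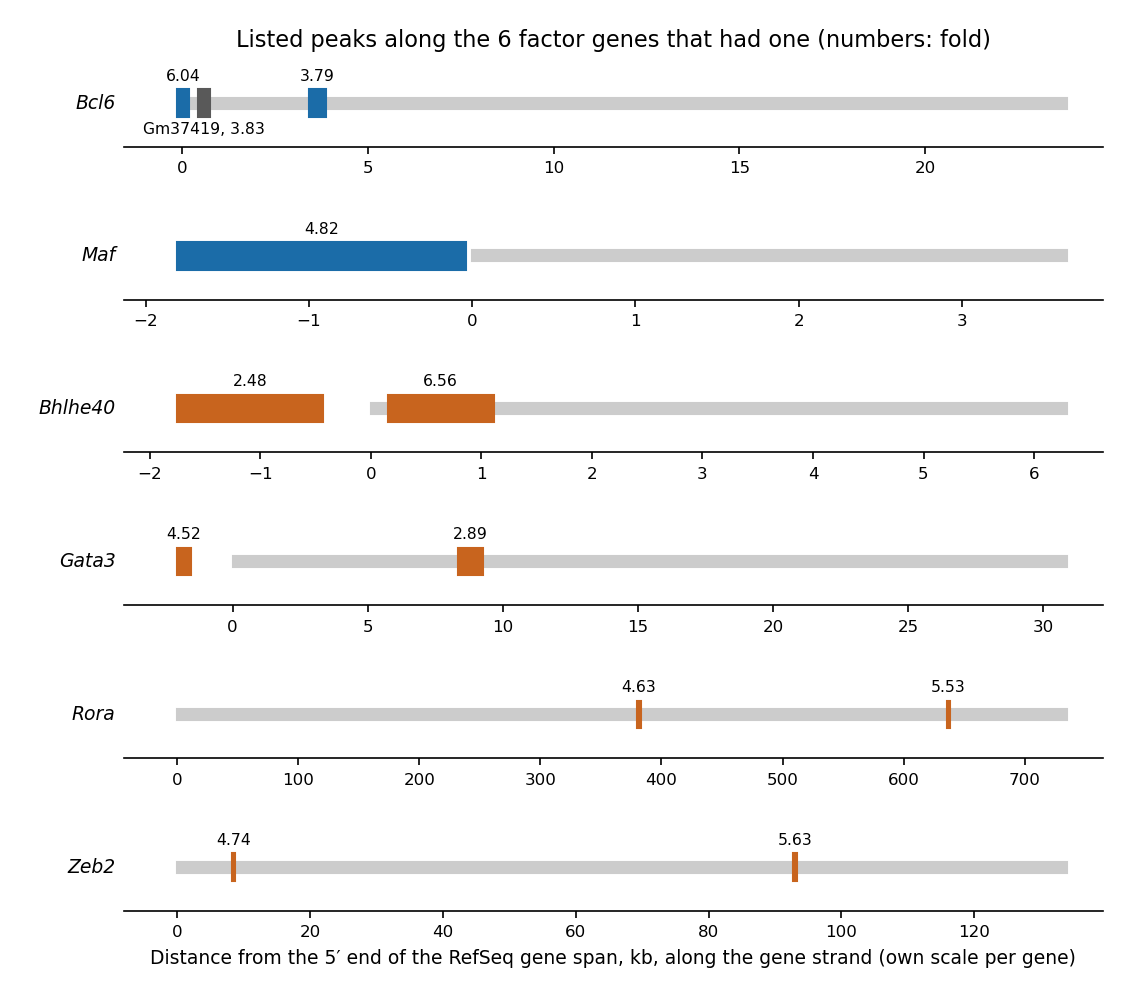
Positions of listed peaks along the 6 factor genes that had one, in kb from the 5′ end of the RefSeq gene span and along the gene strand, each gene on its own scale. Grey bars are gene spans, blue and orange boxes are peaks of follicular and other-fate factors, the dark box is the peak given to Gm37419, and numbers are the authors' folds over the control IgG background. Narrow peaks of Rora and Zeb2 are drawn at a minimum width. Summits of the Bcl6, Maf and Bhlhe40 peaks lie at most 3837 bp from the 5′ end of the span. The inner Gata3 peak lies 8681 bp and the nearer Zeb2 peak 8577 bp inside it. The other Zeb2 peak and both Rora peaks lie further inside.

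Bhlhe40 held both the highest and the lowest fold of the 11 peaks. The peak over the start of the transcript Bhlhe40-003, on chromosome 6 from 108660781 to 108661739, held 69 anti-IFNAR1 fragments, a pileup of 19.51, against a control IgG background of 2.12. Its deposited fold was 6.56 and its q 2.87e-09, rank 578 of the list. The background came from 9 control fragments within 1 kb, with at most 2 at the summit.

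The upstream Bhlhe40 peak, from 108658877 to 108660195, ended 586 bp before the start peak began. The 5′ end of the RefSeq Bhlhe40 span, at 108660629, lay in this gap. The upstream peak held 93 anti-IFNAR1 fragments, a pileup of 26.29, and 10 control fragments at the site itself. Its deposited fold was 2.48 and its q 0.00710. This was the highest coverage of the 11 peaks on either side, and by fold the peak stood at percentile 0.258 of the list. Scaled for depth the ratio was 9.18 (4.57 to 20.9) at the start peak and 2.63 (1.37 to 5.66) at the upstream peak. The 2 intervals overlapped, but their backgrounds came from unlike sources, a 1 kb window and the site. Whether the ratios differ was not tested.

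Gata3 also had 2 peaks with unlike coverage. The peak just before the start of the transcript Gata3-001, on chromosome 2 from 9878681 to 9879599, held 68 anti-IFNAR1 fragments, a pileup of 19.22, and 6 control fragments at the site. Its deposited fold was 2.89 and its q 0.00578, and its summit lay 8681 bp inside the RefSeq gene span. The peak from 9889487 to 9890006, at the start of the transcript Gata3-004 and 9888 bp upstream of the first peak, had 20 anti-IFNAR1 fragments, against a control IgG background of 0.472. The fold was 4.52 and the q 0.0105. That was the weakest q of the 11. Its background was read as 2 control fragments within 1 kb, though 20 within 10 kb would give the same value. On the 1 kb reading the ratio interval was wide, 2.91 to 106. At the Gata3-001 peak the interval was 1.40 to 9.04.

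Rora, whose gene spans 734843 bp, had its stronger peak near an annotated transcript start inside the gene. This peak, on chromosome 9 from 69289902 to 69290933, was assigned to the first coding exon of the transcript Rora-002, 220 bp from that transcript's start and 636674 bp inside the RefSeq span. It held 76 anti-IFNAR1 fragments, a pileup of 21.48, against a background of 3.07, with a deposited fold of 5.53 and a q of 2.52e-08. The ratio without pseudocount was 7.0 (3.86 to 13.8). An intron peak from 69034394 to 69034849 held 15 anti-IFNAR1 fragments, the fewest of the 11, over the genome rate, and its fold was 4.63 at a q of 0.000527. No listed peak overlapped the window at the RefSeq start of Rora.

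Zeb2 had 2 low peaks inside its 133931 bp gene. The peak on chromosome 2 from 45024229 to 45024718 was placed at the start of a transcript without a coding sequence, Zeb2-029, and its summit lay 93095 bp from the 5′ end of the RefSeq gene. It held 19 anti-IFNAR1 fragments over the genome rate, with a deposited fold of 5.63 and a q of 2.10e-05. The peak from 45108700 to 45109164, placed in a coding exon of Zeb2-012, held 30 anti-IFNAR1 fragments and 1 control fragment, and its fold was 4.74 at a q of 0.00160. The ratio interval of this coding exon peak, 1.41 to 346, rests on that single control fragment.

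Prdm1 and Tbx21 had no assigned peak. The nearest listed peak lay 490.9 kb from Prdm1, the farthest of the 9 genes. For Tbx21 it lay 56.2 kb away, at the start of Lrrc46.

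**Figure D2:**
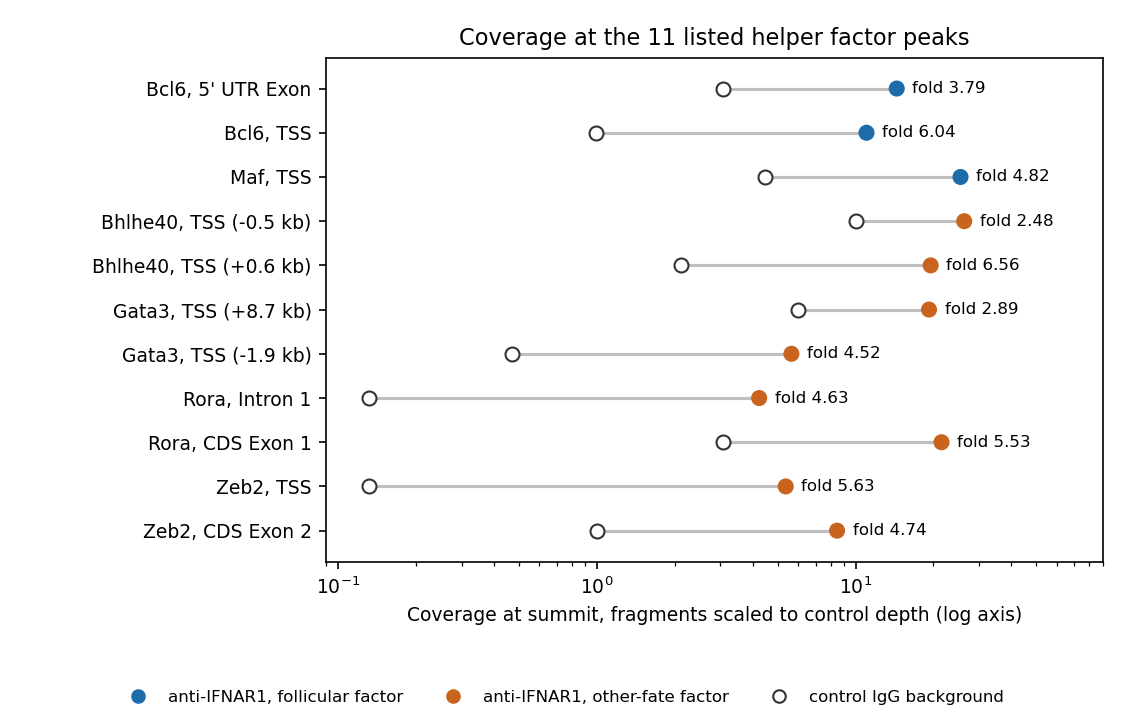
Coverage at the summit of each of the 11 peaks on a log axis, in fragments scaled to the control depth. Filled points are the anti-IFNAR1 side (blue for follicular, orange for other-fate factors), open points are the control IgG background, labels give the authors' fold, and distances in brackets are from the RefSeq 5′ end. The 2 lowest open points, at Rora intron 1 and the Zeb2 start, sit at the genome rate of 0.132.

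Set side by side, the classes overlapped in every measure. The 3 follicular peaks had folds of 3.79 to 6.04 with a median of 4.82, and the 8 other-fate peaks had folds of 2.48 to 6.56 with a median of 4.68, beside a median of 4.74 over the whole list. With 1 peak per gene, the one with the smallest q, the medians were 5.43 for follicular and 5.58 for other-fate genes, and without the caller's pseudocount they were 5.67 for follicular and 8.83 for other-fate peaks, both in the opposite order. Pileup ran from 11.02 to 25.44 in follicular peaks (median 14.4) and from 4.24 to 26.29 in other-fate peaks (median 13.8), beside a list median of 11.6. Background ran from 0.991 to 4.48 in follicular peaks and from 0.132 to 10.0 in other-fate peaks. The 4 peaks with a pileup below 10 were all at other-fate genes, namely both Zeb2 peaks, the upstream Gata3 peak and the Rora intron peak. Low pileups were common in the whole list, where 8.48 stood at percentile 27.8 and 11.02 at percentile 45.6. With only 3 follicular peaks, this split is no trait of a class. Peaks of 1 class share the same pooled fragments and in part the same gene, so they are no replicates and no test was made.

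Peak length ran from 313 to 1768 bp in follicular peaks (median 447) and from 455 to 1318 bp in other-fate peaks (median 718.5), beside a list median of 539 bp. The narrowest was the Bcl6 start peak and the widest that of Maf, both follicular. By section, 2 of 3 follicular and 5 of 8 other-fate peaks lay at an annotated start, together 63.6% of the 11, beside 72.4% of the list. The remaining follicular peak lay in a 5′ UTR exon, and the remaining other-fate peaks in 2 coding exons and 1 intron. Of all 11 peaks, 5 had a fold above the list median and 6 a pileup above it.

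**Figure D3:**
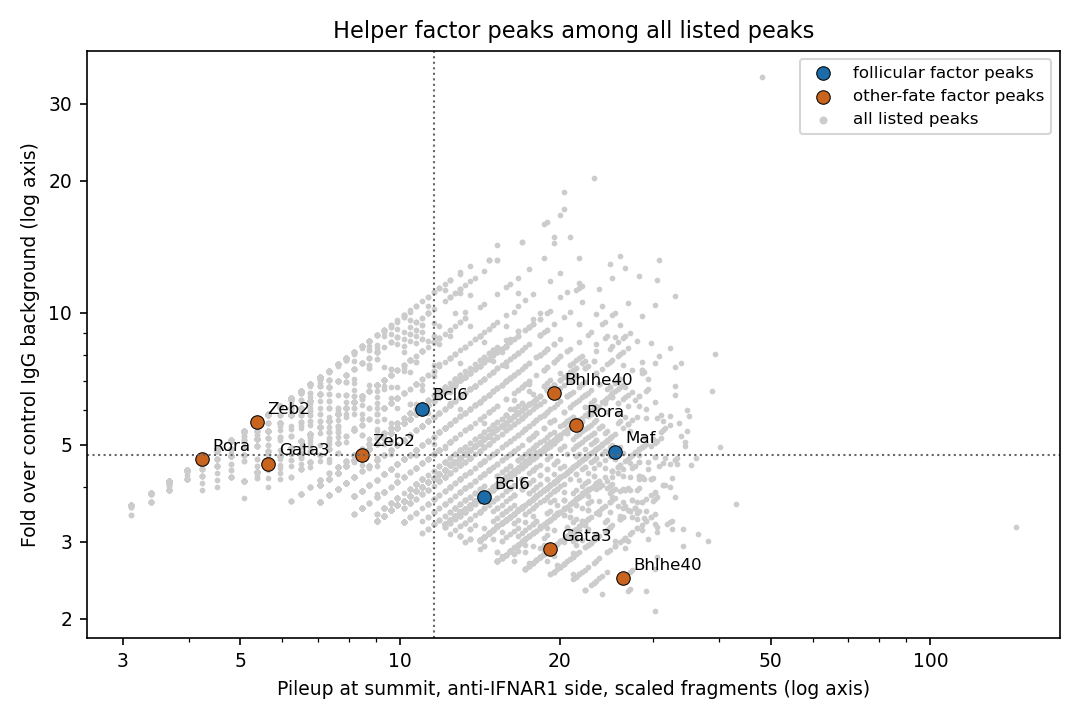
Fold over the control IgG background against pileup on the anti-IFNAR1 side, both on log axes, for all 6395 listed peaks (grey) and the 11 factor peaks (blue, follicular; orange, other fates). Dotted lines are the list medians of 4.74 and 11.6. The upstream Bhlhe40 peak and the Gata3-001 start peak lie near the lower edge of the list, at folds of 2.48 and 2.89.

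All 13 genes on the list of partner factors of the Tfh programme, a list chosen with earlier results of these data known, had a peak, with the smallest q at Id3, an inhibitor of E proteins (fold 8.08), Stat3, which carries IL-6 and IL-21 signals (5.11), and Pou2f1, which encodes the octamer-binding partner of OCA-B (4.24). Of 18 further factors of other fates, 11 were listed, led by Stat6, the IL-4 signal transducer of the Th2 fate (6.20), and by the repressor gene Gfi1 (6.58). Foxp3, Runx3 and Eomes were among the 7 without a peak. Of 14 corepressor and cofactor genes 8 were listed, with Tbl1xr1, an NCoR complex subunit (4.32), Tle3, a Groucho-family corepressor (5.14), and Bcor, a BCL6 corepressor (6.21), in front. The percentage of all protein-coding genes with a listed peak, 21.1%, is the background for each of these counts, and that set also counts genes T cells keep closed.

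Beside 21.1% of all protein-coding genes, 4 of 16 paralogues of the 9 factors (25%) were listed, a share near that background. Of these, 3 had a higher fold than any peak of the 9 genes, namely Prdm4 (9.40), Zeb1, the paralogue of Zeb2 (9.12), and the small MAF gene Mafk (9.09). Their backgrounds, 1 control fragment for Prdm4, the genome rate of 0.132 for Zeb1 and 0.944 for Mafk, were below the list median of 1.49. The remaining listed paralogue, Maff, had a fold of 2.67. Of 12 effector genes of the follicular fate 6 were listed, with the smallest q at Pdcd1, which encodes PD-1 (5.13), Cd200 (5.33) and the IL-6 receptor gene Il6ra (5.35). Of 22 effector genes of other fates 5 were listed (22.7%), again near the 21.1% of all protein-coding genes. They were Cx3cr1 (4.18), S1pr1 (5.73), Ifng (4.74), Ccr7 (4.97) and Il2ra (4.13). The Cx3cr1 peak lay in a 3′ UTR exon 84511 bp from that gene's start. Among the other named peaks, those of Il6ra and Bcor lay in coding exons 40604 and 23776 bp from a start. That of Il2ra lay in an intron at 21457 bp, and that of Cd200 at a transcript end.

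**Figure D4:**
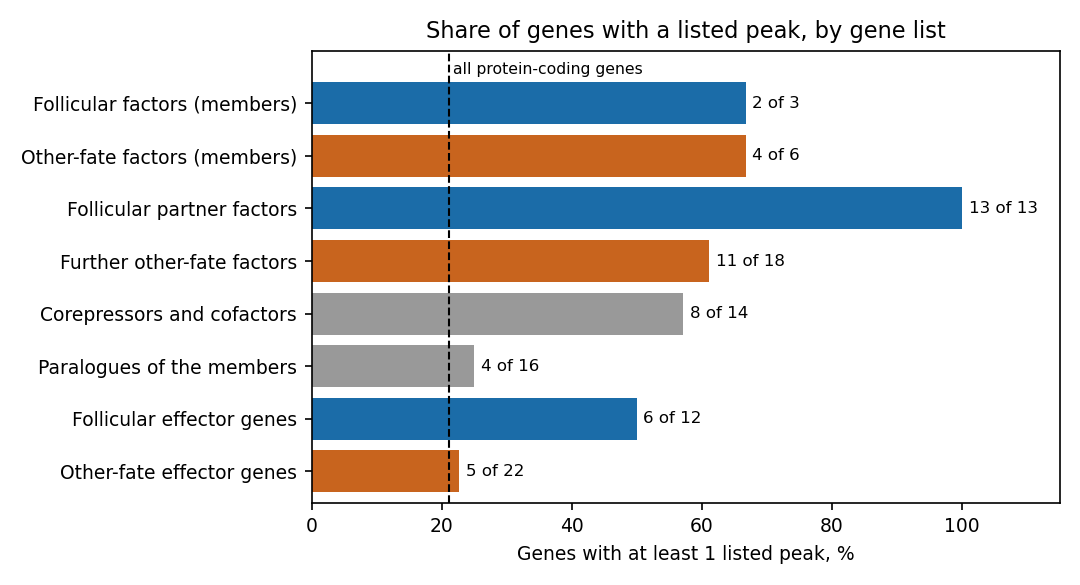
Percent of genes with at least 1 listed peak in each gene list, with counts beside the bars. The dashed line is the share of all protein-coding genes, 21.1%. Both member classes stand at 66.7% and the partner factors at 100%. All lists were chosen with earlier results of these data known.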

How the data were processed

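The submitters' processing notes name the build mm10 and, with no role or order, the aligner BWA (0.7.9a), the peak caller MACS2 (2.1.0.20150420), bedtools, DESeq2 and DiffBind (2.0.7). How cut sites were shifted and duplicates handled is not stated in the labels or headers. The deposited file, made by the authors, was 1 annotated peak list named for IFN against Ig treatment. Pooling of each group was assumed, and depth per sample is unknown. The labels do not state how many mice made up a sample. The signal in it is, per the file headers, a pileup at each summit. The deposited ratio is the fold over the control background, with a pseudocount of 1 on both sides. The headers of 2 deposited columns were damaged, and they were read as −log10 p-value and −log10 q-value. A recomputed Poisson −log10 p differed from the deposited one by at most 0.000111.

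All pileups were whole multiples of 0.283 (tolerance 0.005), which gave fragments. Backgrounds followed from the fold and were matched to the site, a 1 kb or 10 kb window (fragment length 236 bp) or the genome rate. This step was tested on simulated data. A background of 2 fragments in 1 kb equals 20 in 10 kb, and the narrower window was taken. Ratio intervals are exact conditional binomial intervals in scipy 1.17.1 and cover counting error only. Listing of the peaks for being high pushes them upward, and their net lean was not measured. Positions are as the file gives them. Gene spans and start windows are from RefSeq (GRCm38.p6). The design foresaw motif searches in peak windows, and start windows were searched instead. The members and lists were chosen with earlier results of these data known. Every peak of the 9 genes is named, other listed peaks within 100 kb of them, and for each list the 3 genes with the smallest q, of which 1 is not reported here. Other genes were named after their values were seen. Of the list entries, Pou2af2 was not found in RefSeq. No test between groups of mice was possible.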

Additional observations from a re-analysis of the deposited data

Results flagged for a closer look

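Listed peaks that the gene names of the 9 factors do not cover, but that lie in or within 100 kb of one of them, were looked at separately. The peak given to Gm37419 inside Bcl6 had a fold of 3.83. An intergenic peak 66.0 kb beyond the 3′ end of Bcl6 had a fold of 4.70, from 17 anti-IFNAR1 fragments over a background of 0.236. The intergenic peak 27.5 kb before Pou2af1 had a fold of 4.88, and that 89.2 kb before Bhlhe40 had 5.88, from 20 anti-IFNAR1 fragments over the genome rate. On the sides of Tbx21, the Lrrc46 start peak (56.2 kb away) had a fold of 8.88 and the Kpnb1 start peak (71.9 kb away) 4.65. The Anxa2 start peak, 65.5 kb from Rora, had a fold of 3.29. Whether any of these sites acts on the factor gene was not tested.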

How the results depend on the processing

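The 6 listed factor genes, 2 of them follicular, remained listed at a q of at most 0.01, within 5 kb of the gene span and with peaks within 1 kb of a start alone. With a pileup of at least 10, Zeb2 was lost and 7 of 11 peaks were left. With a fold of at least 5, 4 peaks were left, at 1 follicular gene (Bcl6) and 3 other-fate genes, without Maf and Gata3. Within 50 kb of the gene span Pou2af1 was added, which made 7 genes. The median fold of follicular peaks, 4.82, moved to 5.43 with 1 peak per gene, 5.43 near starts and 5.67 without pseudocount. That of other-fate peaks, 4.68, moved to 5.58 with 1 peak per gene, 5.02 near starts, 4.74 at a q of at most 0.01 and 8.83 without pseudocount. The order of the classes thus reversed with 1 peak per gene and without pseudocount. The cause was not tested. No replicate could be left out, since the list holds no value per sample. No paired analysis was possible because the deposited values come from no test over samples. Few control fragments and an unknown spread between mice limit the ratios.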
